A study of Mus musculus with 11 samples.

Results

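The 4C line of pre-malignant melanocytes was compared with its parent, the melan-a line, to describe which genes had gained and which had lost expression by the first derived stage of a murine model of melanoma progression. All 3 libraries of 4C (replicates 1 to 3) and the 2 of melan-a given here (replicates 2 and 3) were taken by their sample titles, 5 of the 11 libraries of the series, and all 14272 genes with a value were compared. Both lines consist of murine cells, and each is a single line sampled as replicate cultures, so the p-values measure the spread between cultures and not between independent derivations. Melan-a cells are spontaneously immortalized, nonmalignant melanocytes of the C57Bl/6 background with an epithelial morphology, grown in RPMI medium that held the phorbol ester PMA at 200 nM beside fetal bovine serum at 5%. 4C cells descend from melan-a through repeated cycles in which attachment to the substrate was prevented, are non-tumorigenic and mesenchymal-like, and were kept in the same medium without PMA. Effects of the derivation and of the missing PMA cannot be told apart in any value below.

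Melanocytes are pigment cells of neural crest origin. Their program rests on MITF, a basic helix-loop-helix factor that switches on the enzymes of melanin synthesis through M-box and E-box elements, and on SOX10 and PAX3, which act on the Mitf promoter. The receptor tyrosine kinase KIT and the melanocortin receptor MC1R signal into the same program. In an epithelial-mesenchymal transition (EMT), or in its neural crest counterpart, cells exchange cadherins, deposit interstitial matrix and assemble contractile fibres under factors of the SNAIL, ZEB and TWIST families. Phorbol esters bind and activate protein kinase C, and mouse melanocytes in culture usually need them to proliferate.

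Values are log2 CPM (CPM, counts scaled to the same library total) as deposited, given in the order replicates 2 and 3 for melan-a and replicates 1, 2 and 3 for 4C. All libraries share their highest value, as after a quantile normalization, so the values are not plain scaled counts. Differences are 4C minus melan-a on the log2 scale with their standard error (SE), and a gene was called higher or lower at an adjusted p under 0.05 (limma over all genes, Benjamini-Hochberg). Where a gene had no more than 3 reads in every library of a line, its difference is given as a bound computed from the value of 3 reads. The depth estimated from the steps of the low values was 3.50 to 7.08 M reads. The 2 libraries of melan-a stood apart from each other: replicate 2 exceeded replicate 3 by more than 3 on the log2 scale in 319 genes, and the reverse held for 154. Among the genes called higher in 4C, 89 were more than 3 above in replicate 2 and 9 in replicate 3. Among those called lower, 7 were more than 3 above in replicate 2 and 35 in replicate 3. For most of these genes, in both directions, replicate 2 thus lay nearer to 4C. Values for each library are therefore given, and results that rest on either library are named.

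In total, 1090 genes were higher (7.64%) and 1077 lower (7.55%) in 4C, 15.2% of all genes in either direction, and the median difference over all genes was -0.06. Of these, 594 higher and 468 lower genes were called with each of the 5 libraries left out in turn. The libraries of both lines did not overlap for 42.1% of all genes. The difference or its bound exceeded 5 on the log2 scale in 164 higher and 123 lower genes. Many of the changes ran between a measurable level and none, since 410 of the higher genes were at the read floor in melan-a and 241 of the lower genes were at the floor in 4C. Both counts partly follow from the authors' filter on the deposited genes, which asked for at least 1 CPM in at least 4 libraries. By the deposited values, 136 genes reached 1 CPM in fewer than 4 of the 11 libraries used here. A gene at the floor in melan-a could enter only through the derived lines. Only 1 gene reached 1 CPM in melan-a and in no other line, and 1 in 4C and in no other line.

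Among the genes with the widest gains were Col1a1, the main fibrillar collagen chain, Krt18, a keratin of simple epithelia, Acta2, the smooth muscle actin of contractile fibroblasts, and Igfbp6, a binding protein of insulin-like growth factors. Igfbp6 was read at -0.72 and -1.42 in melan-a and at 7.83, 7.76 and 7.89 in 4C, at least 8.22 higher (adjusted p = 3.96e-07). Ptgfrn, a membrane protein, was at -3.15 and -2.58 against 7.998, 7.80 and 7.51, at least 8.16 higher (adjusted p = 6.01e-08). The widest losses included Sox10, the calpain gene Capn6, the secreted carbonic anhydrase Car6, and Cdh2, which encodes N-cadherin. Fabp5, a fatty acid binding protein, stood at 6.998 and 7.74 in melan-a and at -1.98, -3.44 and -2.44 in 4C, at least 8.63 lower (adjusted p = 2.97e-07). Absence of overlap between the libraries of both lines was part of the rule by which these genes were picked, and held for 42.1% of all genes.

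Among the gene lists with at least 10 measured members, melanin synthesis held the largest share of losses. Of the 16 measured pigment and melanosome genes, 12 were lower and 0 higher in 4C, against 7.55% and 7.64% of all genes, and 9 of the 12 were called with each library left out. Their median difference was -4.67, or -3.69 with genes at the floor set to their bound. The promoters of several of these genes carry the M-box core TCATGTG, or its reverse complement CACATGA, within 250 bases before the RefSeq start. It was present in 6 of the 11 members with a RefSeq promoter entry (54.5%), in 2.28% of the 9928 measured genes with an entry, and in 3.25% of all 32851 promoters. Shown are the stretches around the core, in capitals, of the 6 called genes of this and the following list that hold it, each on its gene's own strand and read 5′ to 3′ (GRCm38.p6, RefSeq).
Tyr (chr7:87493513-87493584, minus strand): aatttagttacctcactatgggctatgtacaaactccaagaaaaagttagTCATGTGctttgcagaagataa
Tyrp1 (chr4:80834116-80834212, plus strand): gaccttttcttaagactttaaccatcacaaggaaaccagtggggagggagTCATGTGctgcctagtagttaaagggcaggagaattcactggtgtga
Dct (chr14:118052341-118052496, minus strand): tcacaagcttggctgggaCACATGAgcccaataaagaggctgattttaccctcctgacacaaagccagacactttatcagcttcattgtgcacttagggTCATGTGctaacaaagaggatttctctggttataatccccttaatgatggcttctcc
Trpm1 (chr7:64153643-64153749, plus strand): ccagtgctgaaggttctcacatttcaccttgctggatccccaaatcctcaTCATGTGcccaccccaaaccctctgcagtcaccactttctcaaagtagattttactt
Slc24a5 (chr2:125068064-125068126, plus strand): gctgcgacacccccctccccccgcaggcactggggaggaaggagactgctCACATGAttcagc
Mc1r (chr8:123406980-123407081, plus strand): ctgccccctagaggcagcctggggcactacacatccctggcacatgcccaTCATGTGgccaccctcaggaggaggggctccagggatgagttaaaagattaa

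The core began 22 bases before the start in Tyr, 47 in Tyrp1, 13 in Slc24a5, 52 in Mc1r and 142 in Trpm1. Dct held it at 2 positions, 232 and 151 bases before the start and in opposite orientations. A match of these letters is a description of the sequence, and binding of MITF was not measured here. Slc7a11, a cystine transporter of the same list, also held the core and was not called, with values of 3.33 and 6.87 in melan-a and 4.62, 3.28 and 4.33 in 4C. No promoter entry was used for Bace2, Gpr143, Mlana, Pmel and Slc45a2.

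The pair of tyrosinase-related enzymes downstream of tyrosinase fell the furthest. Tyrp1 was read at 8.51 and 12.63 in melan-a and at -0.04, -1.01 and 0.06 in 4C, a difference of -10.90 ± 1.20 (SE; adjusted p = 6.26e-05). Dct, the dopachrome tautomerase, went from 9.04 and 10.81 to 0.87, 0.26 and -2.44, a difference of -10.36 ± 0.92 (adjusted p = 1.07e-05). Mlana, the melanosomal antigen MART-1, was at 6.73 and 8.40 in melan-a and at -2.44, -2.44 and -0.70 in 4C, a difference of -9.43 ± 0.87 (adjusted p = 1.47e-05). All 3 genes were high in both melan-a libraries and near the read floor in every 4C library.
Slc45a2, a transporter of the melanosome membrane, showed 6.63 and 7.25 in melan-a against 0.20, -1.61 and 0.06 in 4C, a difference of -7.39 ± 0.89 (adjusted p = 0.000137). Slc24a5, a cation exchanger of the organelle, was at 3.41 and 6.21 against -0.04, 1.58 and 1.48, a difference of -3.80 ± 0.79 (adjusted p = 0.00651, and 0.0663 without melan-a replicate 3). Tyr itself, the rate-limiting enzyme, was already low in melan-a, at -0.25 and 1.29, and stood at -3.44, -2.44 and -2.01 in 4C, at least 1.78 lower (adjusted p = 0.00352, and 0.059 when only the 5 libraries were fitted). Pmel, which forms the fibrils of the melanosome, was low in both lines, with 2.41 and 2.95 in melan-a and 0.60, -0.42 and 1.05 in 4C. Its difference of -2.27 ± 0.56 was called (adjusted p = 0.0178), but not without melan-a replicate 3 (adjusted p = 0.0998) or without 4C replicate 2 (adjusted p = 0.0658). Tyr and Pmel thus stood apart from the other pigment genes by a low level in melan-a.

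The regulators of the program were lost with it. Of 16 measured melanocyte transcription factors and receptors, 10 were lower and 2 higher, 9 and 2 of them with each library left out, and the median difference was -2.14. Mitf was at 7.73 and 7.97 in melan-a and at 0.87, -0.70 and 0.44 in 4C, a difference of -7.65 ± 0.79 (adjusted p = 3.89e-05). Sox10 was at 9.05 and 7.88 and then at -3.44, -3.44 and -2.44, which corresponds to 0, 0 and 1 reads in the 4C libraries, at least 9.72 lower (adjusted p = 5.08e-07). Pax3 was reduced and kept, from 7.94 and 6.94 to 5.37, 5.60 and 5.55, a difference of -1.93 ± 0.33 (adjusted p = 0.00173). Mitf and Sox10 were thus below 1 on the log2 scale in every 4C library, and Pax3 stayed above 5.
Among the receptors, Kit dropped from 6.92 and 6.18 to -0.04, -3.44 and -3.44, a difference of -8.86 ± 0.97 (adjusted p = 6.06e-05). Erbb3, the neuregulin receptor of the neural crest lineage, went from 8.05 and 7.17 to -0.70, 0.08 and 1.18, a difference of -7.42 ± 0.66 (adjusted p = 1.07e-05). Mc1r was at 6.13 and 6.43 in melan-a and at -3.44, -0.70 and -0.25 in 4C, a difference of -7.74 ± 0.94 (adjusted p = 0.000138). Met, the receptor of hepatocyte growth factor, kept a level of 5.34, 5.29 and 5.57 after 7.24 and 7.48 in melan-a, a difference of -1.96 ± 0.32 (adjusted p = 0.00138). The receptors of this list that were called all fell.

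The 2 members that rose were Sox9 and Kitl. Kitl, the ligand of KIT that skin cells normally present to melanocytes, was at -3.15 and -0.24 in melan-a and at 5.21, 5.66 and 6.05 in 4C, a difference of 7.33 ± 0.83 (adjusted p = 7.76e-05). Sox9, a relative of Sox10 that acts in neural crest and cartilage, rose from 0.87 and -1.42 to 5.05, 3.65 and 4.06, a difference of 4.53 ± 0.66 (adjusted p = 0.000594). Kit and its ligand thus changed in opposite directions, as did Sox10 and Sox9.

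Of 30 measured genes of melanosome biogenesis and transport, 5 were lower and 0 higher, with a median of -0.53, and 8 were lower without melan-a replicate 3 and 3 in the fit of the 5 libraries. Those that fell included Rab38, a small GTPase that delivers melanogenic enzymes, at 1.77 and 6.18 in melan-a and -2.44, -2.44 and -3.44 in 4C, at least 5.23 lower (adjusted p = 0.000458). Its relative Rab32 went from 4.85 and 6.64 to 1.13, -1.01 and 0.06, a difference of -5.69 ± 0.61 (adjusted p = 5.23e-05). Sytl2, which tethers Rab27a vesicles, was at least 7.10 lower (adjusted p = 8.37e-06). Rab27a itself read 3.18 and 4.80 in melan-a and 3.04, 2.01 and 2.41 in 4C, and was not called (adjusted p = 0.0693). The 25 members that were not called included its partner Mlph, melanophilin, at 6.92 and 5.05 against 5.08, 4.93 and 5.08 (adjusted p = 0.228).

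Of 13 measured neural and glial markers, 5 were lower and 1 higher, and 4 of the 5 were called with each library left out. S100b, a calcium-binding protein of melanocytes and glia, fell from 7.77 and 4.81 to -2.44, -0.42 and -0.70, a difference of -7.47 ± 0.85 (adjusted p = 8.34e-05). L1cam, an adhesion molecule of axons, was at 6.42 and 5.70 in melan-a and at -2.44, -2.44 and -3.44 in 4C, at least 7.32 lower (adjusted p = 2.6e-05). Sox10, Mitf, Dct, Tyrp1 and Mlana, which are among the markers by which a melanocyte is usually recognized, were therefore at or near the read floor in 4C. The name given to the line was not borne out by these markers. Pax3, another marker of the lineage, was lower but stayed well above the floor, and Tyr and Pmel were already low in melan-a.

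The interstitial matrix showed the reverse picture, with gains that outnumbered losses. Of 38 measured collagen and cross-linking genes, 16 were higher and 10 lower, 14 and 5 with each library left out, with a median of 0.89, and the count of lower genes was 5 without melan-a replicate 2. Col1a1 was at 1.35 and 1.48 in melan-a and at 10.81, 10.91 and 10.91 in 4C, a difference of 9.46 ± 0.26 (adjusted p = 3.76e-09). Col3a1, the fibrillar collagen of soft tissue, rose from -1.90 and -2.58 to 6.08, 4.39 and 5.74, at least 5.80 higher (adjusted p = 5.23e-06). Col12a1, which decorates collagen I fibrils, was at 3.45 and -0.24 and then at 8.35, 9.04 and 8.97, a difference of 7.18 ± 0.88 (adjusted p = 0.000147). The 4C libraries agreed closely with one another on Col1a1, while Col3a1 ranged from 4.39 to 6.08. On each of these chains they lay above both melan-a libraries.
Chains of collagen VI, which forms beaded microfibrils, rose as well, but not on an even background. Col6a3 was at 0.87 and -1.42 in melan-a and at 8.66, 7.54 and 7.64 in 4C, a difference of 8.22 ± 0.70 (adjusted p = 8.15e-06). Col6a2 was at 5.45 in melan-a replicate 2 and -1.42 in replicate 3, against 7.96, 8.65 and 8.57 in 4C. Its difference was 6.38 ± 1.43 (adjusted p = 0.0105), 9.81 without replicate 2 and 2.94 without replicate 3, and the adjusted p was 0.056 in the fit of the 5 libraries.
Other collagens were lost. Col9a1, a chain of collagen IX otherwise known from cartilage, went from 5.98 and 6.31 to -3.44, -3.44 and -2.44, at least 7.40 lower (adjusted p = 1.77e-05). Col15a1, a collagen of basement membrane zones, went from 3.28 and 4.21 to -3.44, -2.44 and -3.44, at least 5.00 lower (adjusted p = 1.64e-05).

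Among 50 measured matrix glycoproteins and proteoglycans, 20 were higher and 8 lower, with a median of 1.03, and 15 and 5 were called with each library left out. Bgn, the collagen-binding proteoglycan biglycan, rose from 1.63 and -0.54 to 8.80, 9.48 and 9.59, a difference of 8.74 ± 0.51 (adjusted p = 5.01e-07). Ltbp2, a microfibril protein, rose from 0.06 and -1.42 to 6.05, 8.59 and 7.63, a difference of 8.10 ± 0.71 (adjusted p = 9.07e-06). Thbs2, a thrombospondin that limits vessel growth, rose from 2.07 and -0.24 to 7.09, 7.51 and 8.72, a difference of 6.86 ± 0.65 (adjusted p = 1.86e-05).
Laminins of the basement membrane moved both ways. Lamc3 was at -0.72 and -1.42 in melan-a and at 7.66, 9.18 and 9.61 in 4C, at least 9.21 higher (adjusted p = 1.3e-06). Lama4 moved from 6.74 and 6.91 to -0.25, -2.44 and -3.44, a difference of -8.87 ± 0.77 (adjusted p = 8.84e-06). Nid1, the nidogen that links laminin to collagen IV, fell from 3.37 and 2.67 to -1.98, -3.44 and -0.25, a difference of -4.92 ± 0.91 (adjusted p = 0.00321). Fn1, fibronectin, a usual EMT marker, was not called, with 10.97 and 8.81 in melan-a and 8.94, 9.16 and 9.60 in 4C (adjusted p = 0.464). Its ranges overlapped.

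**Figure D1:**
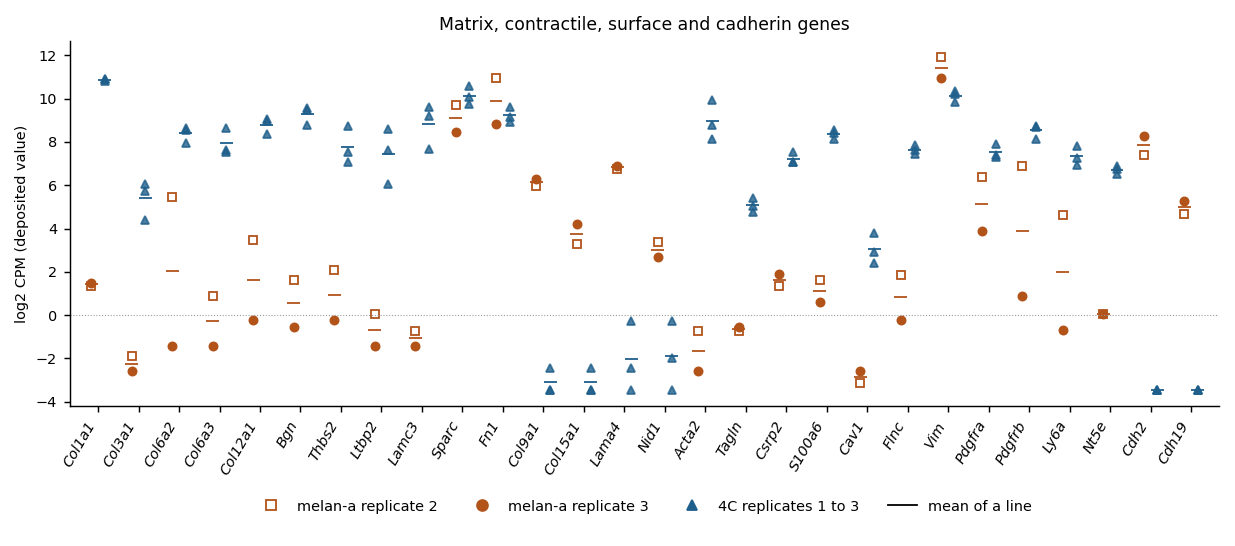
Deposited log2 CPM (vertical axis) of genes named by list for matrix, contractile fibres, surface markers and cadherins. Squares and circles are melan-a replicates 2 and 3, triangles are the 3 replicates of 4C and bars are the mean of a line. Col1a1, Lamc3 and Acta2 lie above melan-a in every 4C library, Cdh2 and Cdh19 lie at the bottom of the scale, and Col6a2 and Ly6a are intermediate in melan-a replicate 2.

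Contractile and mesenchymal surface genes rose in part. Of 30 measured contractile and cytoskeletal genes, 9 were higher and 2 lower, 6 and 1 with each library left out, with a median of 0.59. Acta2 was at -0.72 and -2.58 in melan-a and at 8.13, 8.81 and 9.96 in 4C, at least 9.36 higher (adjusted p = 1.84e-06). Tagln, the actin-binding protein SM22, rose from -0.72 and -0.54 to 5.03, 5.40 and 4.79, at least 5.47 higher (adjusted p = 1.92e-05). S100a6, a calcium-binding protein, rose from 1.63 and 0.60 to 8.15, 8.55 and 8.43, a difference of 7.27 ± 0.36 (adjusted p = 2.16e-07). Vim, the intermediate filament of mesenchymal and of neural crest cells, was high in both lines and lower in 4C, with 11.91 and 10.97 against 10.22, 10.34 and 9.85. Its difference of -1.30 ± 0.27 (adjusted p = 0.00618) was -0.83 without melan-a replicate 2, and the adjusted p was 0.0737 in the fit of the 5 libraries. The rise of smooth muscle genes was thus not shared by vimentin.

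Promoters of the contractile genes were searched in the same way for the CArG box, the site of serum response factor. It was present in 4 of 26 with an entry (15.4%), against 1.41% of measured genes, and the M-box core was present in 0 of 26. Of the 4 genes, 1 was higher and 3 were not called.

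Of 12 measured fibroblast and mesenchymal surface markers, 7 were higher and 1 lower, 4 and 1 with each library left out. Nt5e, the ectonucleotidase CD73, was at 0.06 in both melan-a libraries and at 6.50, 6.73 and 6.87 in 4C, a difference of 6.64 ± 0.45 (adjusted p = 1.33e-06). Ly6a, known as Sca-1, was at 4.64 and -0.70 in melan-a and at 6.95, 7.27 and 7.81 in 4C, a difference of 5.37 ± 1.13 (adjusted p = 0.00718), or 2.71 without melan-a replicate 3. Pdgfrb, the PDGF receptor of mural cells and fibroblasts, was at 6.90 and 0.89 against 8.14, 8.75 and 8.70, a difference of 4.63 ± 1.20 (adjusted p = 0.0221, and 0.098 in the fit of the 5 libraries), which was 7.64 without melan-a replicate 2 and 1.63 without replicate 3. Its adjusted p was 0.0654 without 4C replicate 2 and 0.0634 without 4C replicate 3. The size of these gains depends on which melan-a library is taken as the reference.

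Among regulators of EMT, more genes were called higher than lower. Of 17 measured EMT transcription factors, 9 were higher and 2 lower, 7 and 2 with each library left out, with a median of 1.76, or 1.03 with genes at the floor set to their bound. Of the 17, 6 were at the read floor in melan-a alone and could enter only through the derived lines, and 2 were at the floor in 4C alone. The direction of the count partly follows from that filter. With genes of a mean log2 CPM under 1 left out of the fit, 7 were higher and 0 lower. Snai1 was at -3.15 and -1.42 in melan-a and at 4.36, 4.95 and 4.42 in 4C, at least 4.97 higher (adjusted p = 2.31e-05). Its relative Snai2, which acts in melanocyte development, was at 3.13 and 3.18 and then at -3.44 in all 3 libraries of 4C, at least 4.42 lower (adjusted p = 0.000143). The pair of SNAIL genes therefore changed places, with no overlap between lines in either gene.
Zeb1 rose from 0.87 and 2.09 to 4.59, 5.37 and 5.83, a difference of 3.79 ± 0.54 (adjusted p = 0.000488). Twist2, a basic helix-loop-helix factor of dermal fibroblasts, was at least 4.84 higher (adjusted p = 3.96e-07), with 4.59, 4.22 and 4.52 in 4C. Prrx2, a homeobox factor of limb mesenchyme, was at least 5.89 higher (adjusted p = 3.51e-07), and Foxf2, a forkhead factor of mesenchyme, at least 5.51 higher (adjusted p = 4.58e-07). These 3 genes had no more than 3 reads in either melan-a library.

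N-cadherin was lost and E-cadherin was not gained. Of 20 measured cadherin and catenin genes, 9 were lower and 5 higher, 6 and 2 with each library left out, and the count of higher genes was 2 without melan-a replicate 3 and 3 without 4C replicate 3. Cdh2 was at 7.41 and 8.28 in melan-a and at -3.44, a count of 0 reads, in each 4C library, at least 9.10 lower (adjusted p = 6.01e-08). Cdh19, a cadherin of Schwann cell precursors and melanocytes, fell from 4.66 and 5.29 to 0 reads in each 4C library, at least 6.24 lower (adjusted p = 3.83e-06). Cdh1, E-cadherin, was near the floor throughout, with 1.21 and 0.06 in melan-a and -1.98, -2.01 and -0.70 in 4C. Its difference of -2.20 ± 0.67 (adjusted p = 0.0469, and 0.123 in the fit of the 5 libraries) was not called without melan-a replicate 2 (adjusted p = 0.261), without 4C replicate 1 (adjusted p = 0.109) or without 4C replicate 2 (adjusted p = 0.14).
The planar polarity cadherins moved apart, Celsr2 from 5.50 and 5.45 to -1.01, 0.44 and -0.25, a difference of -5.75 ± 0.52 (adjusted p = 1.24e-05), and Celsr1 at least 2.90 higher (adjusted p = 0.000554). Reads of Cdh2 and Cdh19 were thus at 0 in all 3 libraries of 4C.

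Epithelial genes were split as well, with 4 of 14 measured members higher and 3 lower. Krt18 rose from -0.25 and -0.70 to 9.40, 9.36 and 8.94, at least 9.63 higher (adjusted p = 2.58e-07). Krt7, another keratin of simple epithelia, rose from -0.25 and -1.42 to 4.04, 4.60 and 5.25, at least 5.03 higher (adjusted p = 0.00039). Tjp3, the tight junction scaffold ZO-3, fell from 0.63 and 1.96 to -3.44, -2.44 and -3.44, at least 2.56 lower (adjusted p = 0.00435). Simple keratins thus rose beside the mesenchymal genes in the line described as mesenchymal-like.

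Receptors for the matrix changed with it. Of 42 measured integrin and focal adhesion genes, 9 were higher and 6 lower, 6 and 3 with each library left out, and 3 were lower without melan-a replicate 2. Itga8, a partner of integrin beta 1, went from 5.75 and 7.48 to -2.44, -3.44 and -3.44, at least 7.87 lower (adjusted p = 8.19e-06). Itga6, a laminin-binding chain, fell from 8.87 and 8.96 to 6.91, 6.30 and 6.60, a difference of -2.31 ± 0.26 (adjusted p = 8.47e-05). Itga11, the collagen receptor chain of fibroblasts, rose from 0.87 and -0.54 to 4.04, 5.70 and 6.18, a difference of 5.14 ± 0.95 (adjusted p = 0.00307). Among 34 measured matrix proteases and inhibitors, 9 were higher, 5 without melan-a replicate 2, and 6 lower. Timp1, an inhibitor of metalloproteinases, was at -3.15 and -2.58 in melan-a and at 5.08, 5.54 and 4.94 in 4C, at least 5.58 higher (adjusted p = 1.22e-07). Adamts9, a protease that cleaves versican, fell from 6.65 and 6.96 to 1.47, -0.21 and -0.25, a difference of -6.47 ± 0.47 (adjusted p = 2.5e-06).

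The HOX genes, homeobox factors that set position along the body axis and are arranged in clusters, showed the highest share of gains among the same lists. Of 39 listed genes 25 were measured, and 23 of them were higher and 0 lower in 4C, against 7.64% higher among all genes. Leaving out each library in turn, 20 to 23 were called and 18 were called every time. The libraries of both lines did not overlap in 24 of the 25, with 4C above, against 18.6% of all genes. The deposited genes had passed a filter of at least 1 CPM in at least 4 libraries. HOX genes near the floor in melan-a could therefore enter only through the derived lines, and the direction of the count partly follows from that filter. With genes of a mean log2 CPM under 1 left out of the fit, 8 HOX genes were called.
In melan-a, 23 of the 25 had no more than 3 reads in either library and 15 had 0 reads in both. In 4C their read counts ran from 2 to 454, with at least 10 reads in every library for 20 of the 23. Hoxa10 was at -1.90 and -2.58 in melan-a and at 5.54, 5.91 and 5.67 in 4C, at least 6.10 higher (adjusted p = 6.01e-08). Hoxb13, at the posterior end of its cluster, was at -0.72 and -2.58 and then at 5.92, 6.10 and 5.86, at least 6.35 higher (adjusted p = 1.5e-06). Hoxc11 was at -3.15 and -2.58 and then at 4.83, 4.60 and 4.47, at least 5.03 higher (adjusted p = 5.61e-07). Posterior genes of all 3 clusters were among those with the widest gains.

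Called genes lay in 3 clusters. On chromosome 6, 9 of the 10 measured Hoxa genes were called higher, of 11 listed. Measured Hoxb genes lay within chr11:96194316-96354012 (GRCm38), with 5 of 6 called, of 10 listed, and Hoxc genes within chr15:102921103-103036852, with 9 of 9 called and listed. Hoxb4 was not called, at 1.77 and 1.59 in melan-a against 2.44, 1.90 and 2.76 in 4C, and was chosen after its values were seen. Of the 23 genes at the floor in melan-a, 13 overlapped no other gene on the same strand, and for the others reads may have been split between neighbours.

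**Figure D2:**
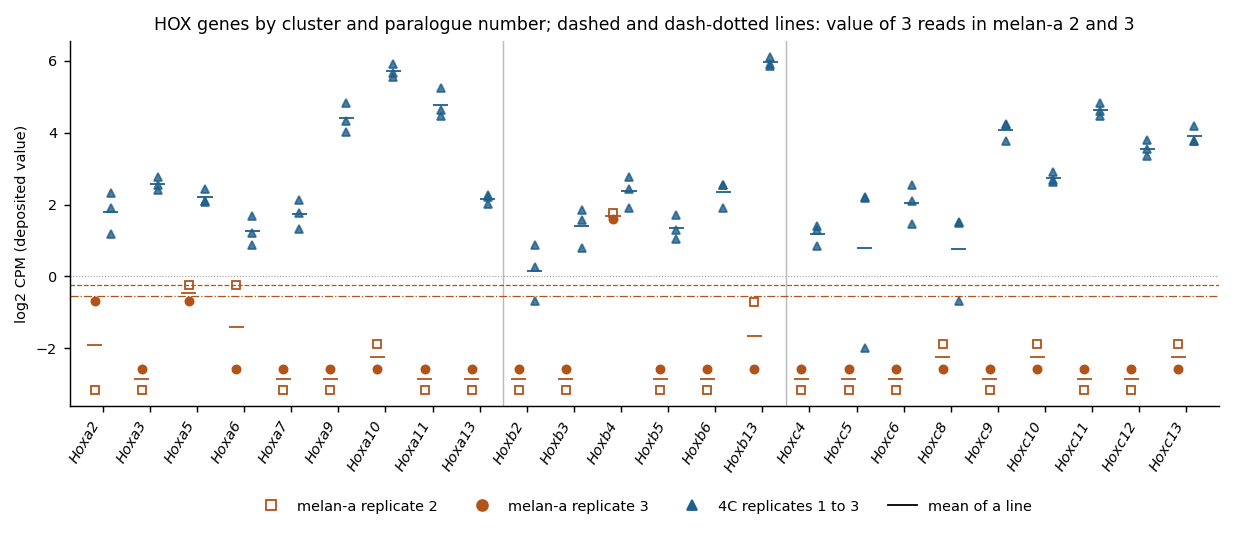
Deposited log2 CPM (vertical axis) of 24 of the 25 measured HOX genes in order of cluster and paralogue number. Squares and circles are melan-a replicates 2 and 3, triangles the 3 replicates of 4C, bars the mean of a line, and the dashed and dash-dotted lines the value of 3 reads in melan-a replicates 2 and 3. The genes drawn have every 4C library above both melan-a libraries, and the 1 measured gene left out had libraries that overlapped.

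Other patterning factors, a list assembled after the HOX values were known, were higher in 12 of 38 measured members and lower in 3, with 10 and 1 called with each library left out. Of the 38, 14 were at the read floor in melan-a and entered, like the HOX genes, through the derived lines, and 4 were higher with genes of a mean log2 CPM under 1 left out. Meox1, a homeobox factor of the somites, rose from -3.15 and -2.58 to 6.05, 5.12 and 4.98, at least 5.78 higher (adjusted p = 3.51e-07). Dlx3 and Dlx4, neighbouring distal-less genes, were at least 3.92 (adjusted p = 3.78e-06) and at least 4.23 higher (adjusted p = 4.51e-05). Alx1, a factor of cranial neural crest, fell from 5.23 and 5.50 to 1.13, 1.39 and 1.05, a difference of -4.18 ± 0.28 (adjusted p = 1.36e-06). Eya1, a coactivator of placode and otic development, fell from 7.03 and 6.34 to -2.44, -3.44 and -3.44, at least 7.95 lower (adjusted p = 5.01e-07). The named genes that rose had no more than 3 reads in either melan-a library.

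Of 40 measured Wnt pathway genes, 14 were higher and 4 lower, 12 and 2 with each library left out, with a median of 0.82. Of the 40, 10 were at the read floor in melan-a and 0 in 4C, so the direction of the count partly follows from the filter. With genes of a mean log2 CPM under 1 left out of the fit, 11 were higher and 4 lower. The ligand Wnt6 was at -3.15 and -2.58 in melan-a and at 6.71, 6.69 and 6.53 in 4C, at least 7.04 higher (adjusted p = 6.01e-08). Axin2, a feedback inhibitor and usual target of beta-catenin, rose from -1.90 and 0.22 to 5.89, 6.42 and 6.11, a difference of 6.98 ± 0.53 (adjusted p = 3.23e-06). The secreted antagonist Wif1 rose from 0.06 and -0.70 to 6.50, 6.42 and 6.86, a difference of 6.91 ± 0.44 (adjusted p = 9.33e-07). Lef1, a nuclear partner of beta-catenin, was not called, with 3.97 and 2.37 against 4.13, 4.11 and 4.41 (adjusted p = 0.302). The co-receptor Lrp5 was lower, at 7.53 and 7.20 in melan-a and 5.61, 5.67 and 5.66 in 4C, a difference of -1.72 ± 0.29 (adjusted p = 0.00176). Ligand, feedback target and antagonist were therefore gained together.

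Of 39 measured TGF-beta and BMP genes, 15 were higher and 0 lower, 8 of them with each library left out and 9 without 4C replicate 2. Of the 39, 6 were at the read floor in melan-a and 1 in 4C, so the direction of the count partly follows from the filter. With genes of a mean log2 CPM under 1 left out of the fit, 12 were higher and 0 lower. Inhbb, the subunit of activin B, was at -3.15 and -2.58 and then at 5.37, 6.24 and 6.16, at least 6.32 higher (adjusted p = 3.96e-07). Bmp4 rose from -0.72 and -1.42 to 4.32, 5.19 and 5.41, at least 5.37 higher (adjusted p = 6.77e-06). Acvrl1, the receptor ALK1, rose from -0.25 and -2.58 to 5.66, 5.21 and 5.80, at least 5.95 higher (adjusted p = 2.43e-05). Bmp7 showed the difference between the melan-a libraries, with 5.36 and -1.42 against 7.62, 7.92 and 7.82 in 4C. Its difference was 5.82 ± 1.41 (adjusted p = 0.016, and 0.0704 in the fit of the 5 libraries), 9.21 without melan-a replicate 2 and 2.43 without replicate 3 (adjusted p = 0.0588).

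Receptor tyrosine kinases were exchanged, with 7 of 24 measured members higher, 4 without 4C replicate 2 or without 4C replicate 3, and 5 lower. Egfr was at -3.15 and -2.58 in melan-a and at 4.10, 4.03 and 4.60 in 4C, at least 4.64 higher (adjusted p = 2.73e-06). Tyro3, the TAM receptor abundant in melanocytes, fell from 7.01 and 6.28 to 4.89, 4.84 and 4.59, a difference of -1.87 ± 0.31 (adjusted p = 0.00163). Ddr2, a receptor for fibrillar collagen, rose from 3.13 and 4.85 to 6.53, 7.29 and 7.72, a difference of 3.19 ± 0.61 (adjusted p = 0.00381). With the losses of Kit and Erbb3 and the partial fall of Met, these receptors of melanocyte growth factors were lower and the EGF and collagen receptors higher in 4C.
Growth factors were higher in 12 of 31 measured members and lower in 4, or 2 without melan-a replicate 2. Igf2 rose from 0.87 and -0.24 to 4.38, 3.83 and 4.77, a difference of 4.01 ± 0.53 (adjusted p = 0.000281). Nrg2, a neuregulin, fell from 3.08 and 4.10 to 0 reads in each 4C library, at least 4.85 lower (adjusted p = 5.18e-06). Vegfc, the lymphatic growth factor, was at 4.33 in both melan-a libraries and fell to 0 reads in each 4C library, at least 5.59 lower (adjusted p = 2.3e-06).

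Among 43 measured axon guidance genes, 11 were higher and 6 lower, 5 in each direction with each library left out, and the count of higher genes was 5 without melan-a replicate 3 and 7 without 4C replicate 1 or 2. Ntn1, netrin-1, rose from -1.90 and -0.54 to 6.70, 7.18 and 6.80, at least 7.29 higher (adjusted p = 5.01e-06). Slit3, a repulsive ligand, rose from -0.25 and -1.42 to 5.09, 4.68 and 4.75, at least 5.23 higher (adjusted p = 7.13e-06). Nrcam, a neuronal adhesion molecule, went from 6.21 and 8.09 to -3.44, -2.01 and -3.44, at least 8.41 lower (adjusted p = 5.95e-07). Unc5c, a receptor for netrin, was at 2.85 and 7.54 in melan-a and at -2.44, -3.44 and -3.44 in 4C, at least 6.46 lower (adjusted p = 0.000212). The netrin ligand was gained and this receptor lost.
Gains among Notch and Hippo pathway genes did not hold when libraries were left out. Of 18 measured Notch genes, 3 were higher and 2 lower, and of 27 measured Hippo genes, 3 were higher and 2 lower. Over all genes, 7.64% were higher and 7.55% lower. With each library left out in turn, 0 of the 6 gains, 1 of the Notch losses and 2 of the Hippo losses were called each time. Notch gains numbered 6 without melan-a replicate 2, 0 without melan-a replicate 3 and 1 without 4C replicate 3, and Hippo gains numbered 0 without 4C replicate 2 or 3.

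Since melan-a alone received PMA, genes of protein kinase C and of the ERK pathway were examined separately. Of 17 measured genes of protein kinase C and other phorbol ester receptors, 1 was higher and 4 lower, 0 and 2 with each library left out, and the median was 0.10. Prkcq, the theta isoform, was at 4.61 and 6.84 in melan-a and at 0 reads in every 4C library, at least 6.98 lower (adjusted p = 2.13e-06). Rasgrp3, a phorbol ester-binding activator of RAS, fell from 3.57 and 4.16 to -1.01, -0.21 and 0.63, a difference of -4.07 ± 0.79 (adjusted p = 0.00432). Prkca, the alpha isoform, was not called, with 5.92 and 4.90 in melan-a and 6.07, 6.15 and 6.01 in 4C (adjusted p = 0.28). The losses were thus those of single members, and a part of PMA in them was not tested.
Of 28 measured genes of ERK pathway output, 4 were lower and 2 higher, with 2 lower without melan-a replicate 2 and 7 lower and 0 higher without 4C replicate 1. Over all genes, 7.55% were lower and 7.64% higher, and the gains in the protein kinase C and ERK lists lay near that share. Spry2, a feedback inhibitor, fell from 5.23 and 5.73 to 3.45, 1.96 and 2.55, a difference of -2.83 ± 0.48 (adjusted p = 0.00187). Etv5, an ETS factor induced by ERK, was at 6.67 and 7.61 and then at 4.95, 0.69 and 2.25, a difference of -4.51 ± 0.92 (adjusted p = 0.00588), with a wide spread among the 4C libraries. The phosphatase gene Dusp6 was not called, with 5.98 and 7.21 against 6.24, 5.72 and 6.24 (adjusted p = 0.503). The phorbol ester response element TGACTCA was found in the promoters of 0 of the 11 pigment genes and of 0 of the 12 protein kinase C genes with an entry, in 2 of 10 melanocyte factors and receptors (20%), in 5 of 26 contractile genes (19.2%) and in 3.93% of measured genes.

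Antigen presentation and interferon genes were higher in part. Of 22 measured antigen presentation genes, 6 were higher and 0 lower, each of the 6 also with every library left out, and 12 were higher without melan-a replicate 2. H2-K1, a class I heavy chain, rose from -0.72 and -0.70 to 4.24, 5.88 and 6.39, at least 5.90 higher (adjusted p = 0.000156). Tap2, a subunit of the peptide transporter, rose from 1.63 and 0.06 to 4.58, 5.03 and 5.23, a difference of 4.10 ± 0.63 (adjusted p = 0.000824). B2m, the light chain of class I, was high in both lines and not called, with 9.10 and 8.12 against 8.18, 8.72 and 9.39 (adjusted p = 0.846). Class I genes are near-identical copies of one another, so reads may have been divided among them.
Of 57 measured interferon-stimulated genes, 11 were higher and 3 lower, and 18 were higher and 1 lower without melan-a replicate 2. Ifitm1, a membrane restriction factor, was at least 6.27 higher (adjusted p = 1.41e-07), and Parp14 rose from 0.06 in both melan-a libraries to 3.62, 4.93 and 5.00, a difference of 4.45 ± 0.53 (adjusted p = 0.000131). Ifit1, an early interferon target, was not called, with 3.37 and 2.71 against 4.02, 3.35 and 3.57 (adjusted p = 0.415). Chemokine, cytokine and receptor genes were called as often in each direction, 9 higher and 9 lower of 34 measured, although 4 or 5 were lower without melan-a replicate 2, melan-a replicate 3 or 4C replicate 2. Ccl2, a monocyte attractant, rose from -1.90 and -2.58 to 5.19, 4.51 and 4.47, at least 5.12 higher (adjusted p = 1.21e-06). Il1r1, the receptor of interleukin-1, was at least 6.90 higher (adjusted p = 7.97e-06).

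Of 36 measured glycolysis genes, 9 were lower and 3 higher, 4 and 3 with each library left out, with a median of -0.37, and 4 or 5 were lower without melan-a replicate 3, 4C replicate 2 or 4C replicate 3. Eno1, enolase, fell from 10.74 and 11.03 to 9.91, 9.40 and 9.11, a difference of -1.41 ± 0.24 (adjusted p = 0.00163). Pdk3, a kinase that restrains pyruvate dehydrogenase, rose from 5.77 and 5.66 to 7.38, 7.37 and 7.22, a difference of 1.61 ± 0.21 (adjusted p = 0.00021). Over all genes, 7.55% were lower and 7.64% higher. Of 65 measured genes of oxidative phosphorylation, 7 were lower and 0 higher, 2 with each library left out and 3 without melan-a replicate 2, 4C replicate 2 or 4C replicate 3. Their coactivator Ppargc1a, a target of MITF in melanocytes, was at 5.92 and 5.82 in melan-a and at -2.44, -3.44 and -3.44 in 4C, at least 7.13 lower (adjusted p = 2.14e-06). The respiratory chain subunit Uqcrh fell from 8.30 and 7.66 to 6.79, 6.31 and 6.65, a difference of -1.39 ± 0.25 (adjusted p = 0.00247). The coactivator had no more than 3 reads in each 4C library, while the subunit stayed above 6 on the log2 scale.
Lysosome genes were lower in 11 of 69 measured members and higher in 4, against 7.55% and 7.64% of all genes. Their median was -0.46, and 5 and 1 were called with each library left out. Without melan-a replicate 2, 5 were lower. Laptm4b, a lysosomal membrane protein, fell from 7.84 and 7.40 to 2.08, 0.26 and 1.83, a difference of -6.23 ± 0.56 (adjusted p = 1.14e-05). Antioxidant genes of the NRF2 program were higher in 4 of 33 and lower in 1, against 7.64% and 7.55% of all genes, with a median of 0.11. The wide gains were those of single members. Nqo1, a quinone reductase, rose from 2.65 and 2.86 to 7.75, 7.71 and 8.56, a difference of 5.25 ± 0.47 (adjusted p = 1.05e-05). Gsta4, a glutathione transferase, rose from -3.15 and -0.70 to 7.31, 6.64 and 7.67, at least 7.60 higher (adjusted p = 7.58e-07). Hmox1, heme oxygenase, was not called, with 7.46 and 6.23 against 7.65, 5.52 and 7.19 (adjusted p = 0.973).

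Proliferation genes were called at or below the background. Of 46 measured replication and G1/S genes, 2 were higher and 1 lower, and of 44 mitosis genes 1 was higher and 0 lower, with 0 of these 4 called each time a library was left out. Without melan-a replicate 3, 9 replication genes were higher, and without melan-a replicate 2, 0 were. Mki67, the proliferation marker, was at 7.49 and 9.57 in melan-a and at 8.28, 10.05 and 9.07 in 4C, with overlapping ranges (adjusted p = 0.808). Of 38 measured genes of the G1 checkpoint and p53 pathway, 2 were higher and 3 lower. Cdkn2a, which encodes p16 and p19ARF, was present in both lines, at 7.36 and 6.59 against 6.57, 6.32 and 6.81 (adjusted p = 0.702). Plk2, a p53 target, fell from 6.72 and 6.19 to 4.83, 4.56 and 4.10, a difference of -1.96 ± 0.35 (adjusted p = 0.00234). Of 28 measured BCL2 family and caspase genes, 6 were higher and 1 lower, 4 and 0 with each library left out, and 2 were higher in the fit of the 5 libraries. Outside that list, the death receptor gene Fas was at least 3.20 higher (adjusted p = 0.00033).

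Enzymes that write and erase histone marks also showed few calls. Of 74 measured, 3 were higher and 4 lower, below the background in each direction, and 0 and 1 were called with each library left out. The counts were 1 lower without melan-a replicate 2 or 4C replicate 2 and 1 higher without 4C replicate 1 or 2. Hdac9, a class IIa deacetylase gene, was the lower gene called each time, at 2.41 and 1.48 in melan-a and 0 reads in every 4C library, at least 3.21 lower (adjusted p = 0.00046). Of 43 measured genes of DNA methylation and polycomb complexes, 2 were higher and 2 lower, and 4 were higher without melan-a replicate 2. Rbbp7, a histone-binding subunit of several chromatin complexes, rose from 7.98 and 8.33 to 9.55, 9.73 and 9.39, a difference of 1.40 ± 0.19 (adjusted p = 0.00039). Ezh2, the methyltransferase of polycomb repressive complex 2, was not called, with 6.28 and 6.79 against 6.005, 6.59 and 6.16 (adjusted p = 0.786). Of 18 measured imprinted genes, 4 were lower and 1 higher, and 0 were lower without melan-a replicate 3.

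Few markers of other cell types were measured or called. Of 17 listed leukocyte markers 3 were measured, with summed levels of 96.8 and 12.7 CPM in melan-a and 7.64 to 20.4 in 4C, and 0 were called. Of 13 listed keratinocyte markers 3 were measured, with 0 called, at 22.97 and 8.36 CPM in melan-a and 11.7 to 18.2 in 4C. Of 14 listed endothelial markers 6 were measured, at 257 and 182 CPM in melan-a and 179 to 188 in 4C, and 2 were called higher. Sox18, a factor of vascular development, was the one called with each library left out, at least 1.46 higher (adjusted p = 0.000364). Cdh5, VE-cadherin, reached 4.01 in 4C replicate 1 and -0.70 and 0.44 in the others, at least 1.64 higher (adjusted p = 0.0476, and 0.163 in the fit of the 5 libraries). It was not called without 4C replicate 1 (adjusted p = 0.0657), 4C replicate 3 (adjusted p = 0.0651), melan-a replicate 2 (adjusted p = 0.254) or melan-a replicate 3 (adjusted p = 0.0567).

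**Figure D3:**
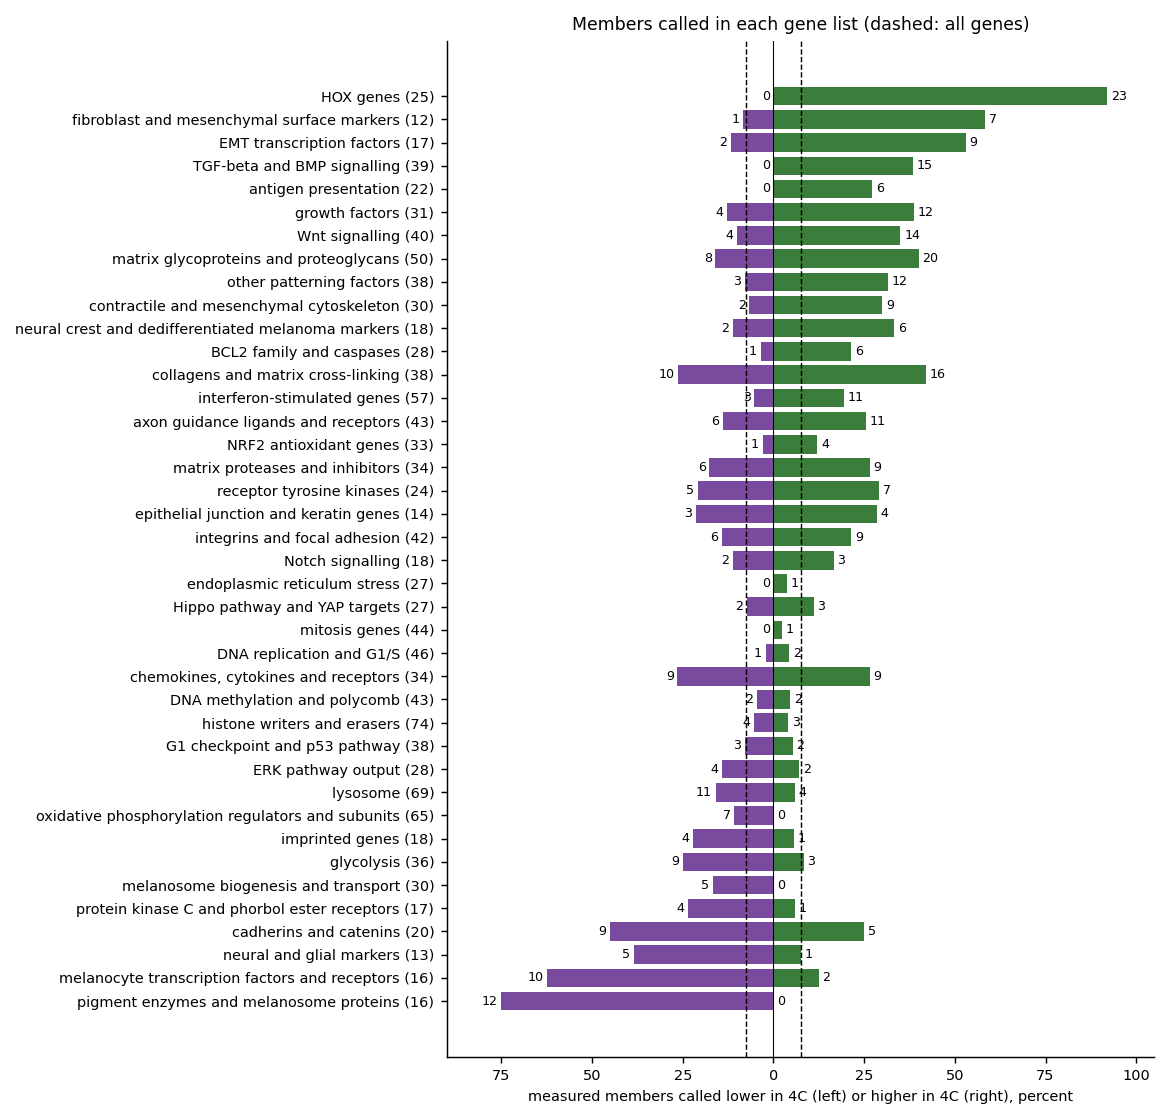
Share of the measured members of each gene list called lower (left, percent) or higher (right, percent) in 4C, for lists with at least 10 measured members. Numbers beside the bars are counts of genes, numbers in brackets are measured members and the dashed lines mark 7.55% lower and 7.64% higher among all genes. The HOX list holds 23 higher of 25 and the pigment list 12 lower of 16.

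The lines further along the series are given beside 4C as values only, since all fits share their spread. In 4C11-, which is also mesenchymal-like, the mean of Col1a1 was 10.57, of Acta2 8.46, of Sox10 -0.49 and of Hoxa10 5.62. In 4C11+, the epithelial metastatic line, the mean was 1.76 for Col1a1, -1.15 for Acta2, 8.01 for Sox10 and 5.89 for Hoxa10. Tyr and Pmel, low in both melan-a and 4C, had means of 8.52 and 11.91 in 4C11+, where Hoxb13 was at 0.81 and Hoxc11 at -2.49.

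Finally, differences were summarised by chromosome over the 7995 genes with a mean log2 CPM of at least 4, whose overall median was -0.01. Chromosome X had the highest median, 0.79, with 55 genes higher and 2 lower of 217 and 83.4% of genes above 0. Chromosome 11 followed with 0.43, and 69 higher and 9 lower of 683. Chromosome 4 had the lowest median, -0.59, with 6 higher and 89 lower of 519 and 12.5% of genes above 0, and chromosome 8 had -0.54, with 7 higher and 73 lower of 446. Between the melan-a libraries the medians were -0.23, 0.04, 0.06 and -0.01 on the same 4 chromosomes, smaller than the medians between the lines. Chromosome 1, with a median of 0.41 between the lines, differed as much between the melan-a libraries, by 0.40. Of the genes named above, Pdk3 and Rbbp7 lie on chromosome X, and Eno1 and Uqcrh on chromosome 4. Their differences share the direction of the median of their chromosome, whereas L1cam, also on chromosome X, was lower. Copy number was not measured.

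**Figure D4:**
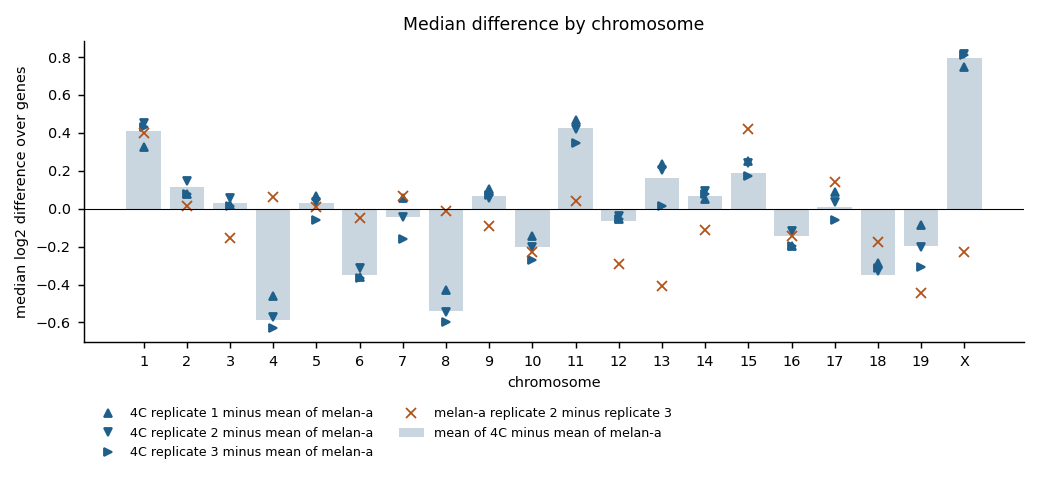
Median log2 difference over genes (vertical axis) for each chromosome (horizontal axis). Grey bars are the mean of 4C minus the mean of melan-a, triangles each 4C library minus the mean of melan-a, and crosses melan-a replicate 2 minus replicate 3. On chromosomes X, 11, 4 and 8 the 3 libraries of 4C lie together and the cross lies near 0 or on the other side of it.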

How the data were processed

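RNA was extracted with TRIzol from triplicate cultures and sequenced after ribosomal depletion (Ribo-Zero Gold, stranded total RNA kit). Per the labels and the methods, the authors used Trimmomatic for trimming, STAR for alignment to GRCm38, Rsubread for counting and voom (limma) for the transformation, after a filter that kept a gene if 4 or more libraries reached 1 CPM. The strand setting of the counting is not given in the sources used here. The deposited values are log2 CPM, and all libraries share the highest value of 13.69, as after a quantile normalization. Melan-a replicate 1 was not analysed here.

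The values were used as deposited. Reads and depth were estimated from the steps of single reads, exact for low values only. Lines were compared with limma 3.58.1 in R 4.3.3 (mean per line over all 11 libraries, variance trend, Benjamini-Hochberg over 14272 genes, adjusted p under 0.05). On simulated data for this comparison with 200 changed genes, 0% were recovered at a log2 difference of 1, 52.5% at 2 and 74% at 3. Unchanged genes called numbered 0, 4 and 8. The adjustment depends on how many genes change, and 2167 were called in the data, so these shares do not give the recovery there. A line was at the floor with at most 3 reads in each library. Sums over lists are of linear CPM. Promoters of RefSeq (GRCm38.p6) were searched on both strands, 250 bases before the start. The members and gene lists were chosen with earlier results of these data known. Named are up to 15 genes with the widest differences in each direction, among called genes without overlap between the lines. For each list, fixed anchors and up to 4 called members without overlap in each direction are named. Called members where there were at most 5, and genes whose promoters are printed, are named as well. Of 24 deposited genes no symbol was found. Tables were computed in Python 3.11.15 with pandas 2.3.3. Alternatives covered the libraries fitted, the variance model, scaling, a replicate block, filters on low values and each library left out. Results for some genes are not reported here.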

Additional observations from a re-analysis of the deposited data

How the results depend on the processing

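With only the 5 libraries of melan-a and 4C fitted, 795 genes were higher and 685 lower in 4C, and 776 to 1157 were higher and 677 to 1001 lower when single libraries were left out, with the lowest counts of lower genes without 4C replicate 2 (677) and without melan-a replicate 2 (717). In that fit of 5 libraries the called counts of further lists moved by over 1.5 times, to 1 higher among melanocyte factors and receptors, 3 among cadherins and catenins, 6 among axon guidance genes, 1 among Notch genes, 1 in ERK output, 0 in DNA replication, 2 among lysosome genes, 1 among histone enzymes and 1 among endothelial markers, and to 1 lower among neural crest markers, 0 among contractile genes, 2 among Wnt genes, 2 in ERK output, 1 in the G1 checkpoint and p53 list, 4 among chemokines and cytokines, 5 among glycolysis genes, 3 in oxidative phosphorylation, 2 in endoplasmic reticulum stress, 2 among histone enzymes, 1 in DNA methylation and polycomb and 2 among imprinted genes. With the replicate number as a block, 1079 were higher and 1186 lower. Same-numbered libraries of both lines shared only the number, with correlations of their deviations of -0.10 and -0.23 for replicates 2 and 3, and neither 4C replicate 2 nor 4C replicate 3 correlated best with its own number. The block ended the call of Cdh1 (adjusted p = 0.0624) and of Cdh5 (adjusted p = 0.0776) among the named genes. The other settings gave 817 to 1091 higher and 772 to 1086 lower genes. No called gene named here changed its direction. Genes that were not called changed sign when a library was left out: the differences without 1 library ranged from -0.34 to 0.64 for B2m, from -1.14 to 0.091 for Dusp6, from -1.74 to 0.42 for Fn1, from -0.68 to 0.57 for Hmox1, from -0.44 to 1.64 for Mki67 and from -2.79 to 0.75 for Slc7a11. The causes were not tested. Depth limits genes near the floor of 3 reads, where a difference is a bound, and 2 melan-a libraries limit what can be called.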
